A study of Bos taurus with 6 samples.

Results

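The genes described here are 200 genes of the lactating bovine mammary gland. With the major milk protein genes set aside, the levels of these 200 rose over 6 heifers with the share of the RNA taken by the milk protein genes. The milk protein share is the summed count of 6 casein and whey protein genes, chosen by identifier, as a percentage of all counts of a heifer. After removal of these 6 genes, the counts of the remaining genes were scaled to counts-per-million (CPM). Of the 24579 genes listed, 9307 had a mean from 10 to below 500 CPM, and the window held 9253 genes once 54 genes that the paper discusses by name were left out. The 200 genes with the highest Pearson r between log2(CPM + 1) and the share over the 6 heifers are the members, which are 2.16% of the window. The measured values themselves chose the members, so their correlations, slopes and folds along the share are a description and carry no test.

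The tissue came from Holstein heifers in their first lactation, biopsied on day 21. In the last 6 to 7 weeks before birth, the dams of the in utero heat stressed heifers (IUHT-H 9196, 9203 and 9204) had shade only. The dams of the in utero cooled heifers (IUCL-H 9202, 9214 and 9223) had fans and soakers besides shade. Both groups were kept alike after birth. Each heifer gave 1 library of total RNA from a piece of whole gland, so a gene expressed by fewer cells cannot be told apart from one with less RNA per cell.

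Caseins and whey proteins are made by the secretory epithelial cells that line the alveoli of the gland. Prolactin, glucocorticoids and insulin together switch on their genes, and in lactation their transcripts crowd the RNA of the tissue. The proteins are translated at the endoplasmic reticulum, modified in the Golgi apparatus and released into the alveolar lumen by exocytosis. A biopsy also holds myoepithelial cells, stroma, vessels, fat and leukocytes, which do not make milk proteins, so the milk protein share of a biopsy depends on its cells as well as on their activity.

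The milk protein share differed widely between heifers of the same treatment. It was lowest in IUHT-H 9203 with 62.6%, followed by IUHT-H 9196 with 63.7% and IUCL-H 9202 with 65.1%. IUCL-H 9223 had 69.8%, IUCL-H 9214 had 70.1% and IUHT-H 9204 had the highest share with 72.4%. The counting error was small beside this, as the widest 95% Wilson interval spanned 0.0217 percentage points (counting error only). The shares leave a gap of 4.68 points between the lower 3 and the upper 3 heifers, and IUHT-H lie at both ends of the order. With n = 3 heifers on each side, the mean share was 66.2% ± 5.35 (SD) for IUHT-H and 68.3% ± 2.79 (SD) for IUCL-H. The difference of -2.05 points (-5.13 without 9204 and -0.25 without 9203) was within the spread between heifers (two-sided exact permutation test, P = 0.7, where 0.1 is the smallest P that 3 against 3 heifers can give). The 6 genes were the 6 with the most counts in all 6 heifers, each with between 3.12% and 24.9% of the counts, while no other gene went above 1.34%. The total was between 75754791 and 101361294 counts, of which 23458119 to 32029021 remained per heifer without the 6 genes. The smallest remainder was in IUHT-H 9204.

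Along this order the 200 members rose on the CPM scale of the remaining genes. Their r ranged from 0.996 down to 0.891 (median 0.93), against a median of -0.23 over the window. The last 3 members had r of 0.891 each, and the next gene outside had 0.890, so the lower edge of the set is not marked by any gap. Rank 200 had 43.7, 51.2, 44.4, 59.9, 61.5 and 60.4 CPM in heifers 9203, 9196, 9202, 9223, 9214 and 9204, and rank 201, just outside, had 11.9, 11.5, 11.4, 13.8, 13.7 and 13.5 CPM. In both, the lower 3 and upper 3 heifers by share were apart. Inside these sets of heifers, rank 200 had no order along the share, and rank 201 fell as the share rose. Rising genes were the minority on the CPM scale of the remaining genes, and this balance depended on the scaling, as given below. At the same distance from 0, 570 genes of the window lay as far or farther on the negative side, 2.85 times as many as the members. Beyond 0.95 there were 43 members against 151 genes below -0.95, and 39.9% of the window had a positive r at all.

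**Figure D1:**
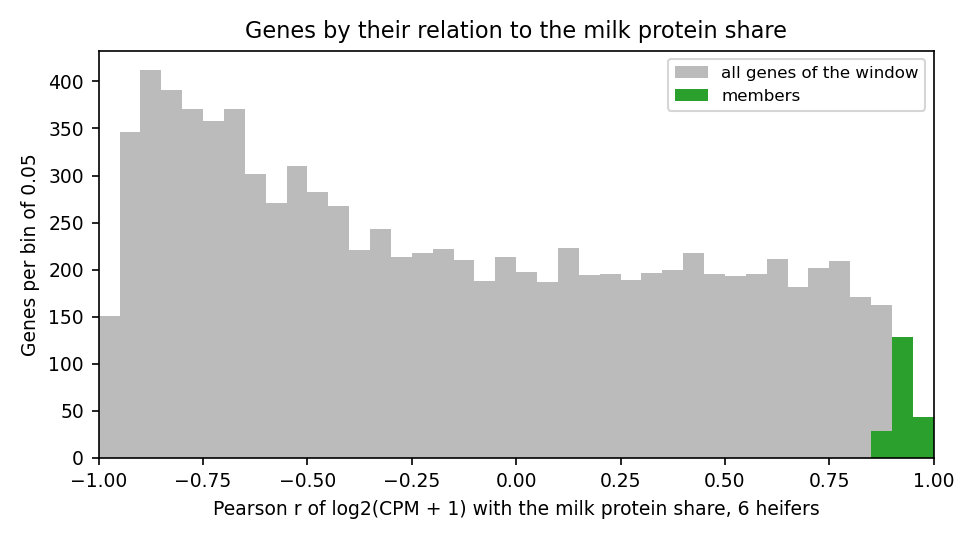
The plot shows the 9253 genes of the abundance window by Pearson r of log2(CPM + 1) with the milk protein share over 6 heifers (x axis, from -1 to 1) and the number of genes per bin of 0.05 (y axis), with the members in green. The members fill the right end from 0.891 upward, and the grey bars are taller at the left end.

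Few members can be named. The count files list genes by Ensembl identifier, and the gene table used here pairs no identifier with a symbol. Names were therefore taken from the supplementary tables of the study, which pair 375 identifiers with a name, and 108 of those genes were in the window. Only 1 of the 200 members was among them, and the other 199 are known here by identifier or by their rank in r. None of the 35 gene lists prepared for secretory, lactogenic, metabolic and cell type functions could be used, because no list had more than 7 genes with an identifier and none of these genes was a member. The markers of the secretory epithelium and of the other cell types could not be examined for the same reason, and the part of cell composition in the results was not tested. No sequence or position was at hand for the members.

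The named member is C14orf1 (ENSBTAG00000011987, rank 122), also known as ERG28, a protein of the endoplasmic reticulum membrane that holds together enzymes of sterol synthesis. C14orf1 had 13.2, 15.7 and 17.2 CPM in heifers 9203, 9196 and 9202, and 19.2, 23.3 and 21.5 CPM in heifers 9223, 9214 and 9204. The 3 heifers with the higher shares were all above the other 3, although the highest value was in 9214 and not in 9204. From the lowest to the highest share the level rose 1.63-fold, with a slope of 0.66 log2 units per 10 percentage points (r = 0.918). These values rest on 396 to 706 counts per heifer.

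The closest fit to the share was that of ENSBTAG00000014476, with r = 0.996. It had 11.6, 11.8, 12.5, 14.3, 14.5 and 15.1 CPM in heifers 9203, 9196, 9202, 9223, 9214 and 9204, which is the order of the shares without exception. ENSBTAG00000018847 was next with r = 0.995. In the same order of heifers it had 68.9, 70.7, 70.9, 76.6, 77.5 and 80.3 CPM. Both genes changed little, 1.30-fold and 1.17-fold from the lowest to the highest share, so a place near the top of the set stands for regularity and not for size. Of the 10 members with the highest r, none was among the 10 with the steepest slope, and their slopes lay between 0.22 and 0.50 log2 units per 10 points.

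The steepest members changed by factors that the leading ones did not reach. The steepest of all, rank 23, had 13.2, 10.9 and 13.1 CPM in heifers 9203, 9196 and 9202, but 23.6, 26.8 and 38.4 CPM in heifers 9223, 9214 and 9204, a slope of 1.66. The member of rank 66 rose without exception, with 128.3, 178.8, 218.4, 241.8, 299.4 and 377.3 CPM in the order of the shares, and its 2.94-fold rise was the largest of the set. In the member of rank 129 the highest level was not in the heifer with the highest share. It had 75.5, 97.6 and 103.0 CPM in 9203, 9196 and 9202, then 167.8 and 201.7 CPM in 9223 and 9214, and 159.1 CPM in 9204. The 10 steepest members had slopes of at least 1.11 and mean levels from 21.0 to 282.6 CPM, so they were not confined to rare transcripts. At the other end, the member of rank 152 had 74.3, 76.6, 77.8, 78.5, 79.3 and 79.8 CPM in the order of the shares, the smallest slope of the set at 0.09.

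Over the whole set, the median slope was 0.45 log2 units per 10 percentage points, with the middle of the set between 0.30 and 0.63. Between heifers 9203 and 9204 the median fold was 1.35 (range 1.06 to 2.94), with 54 members at 1.5-fold or more and 12 at 2-fold or more. The median difference of 0.42 log2 units compares with a counting error of 0.05 log2 units for the same pair of libraries, since the lowest count of any member in any heifer was 221. The members were somewhat more abundant than the window, with a median of 67.6 against 40.0 CPM. The share of genes reaching the r of the last member was 0.982% from 10 to below 30 CPM, 2.68% from 30 to below 100 CPM and 3.35% from 100 to below 500 CPM. The most abundant member, rank 147, had 396.3, 455.9, 443.2, 530.1, 538.1 and 517.5 CPM in the order of the shares.

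The rule tied the members to the shares, so the gap between the lower 3 and the upper 3 heifers recurs in them by selection. In 195 of the 200 members, heifers 9223, 9214 and 9204 were all above heifers 9203, 9196 and 9202. Only 18 members kept the order of all 6 shares, and Spearman's rho ranged from 0.60 to 1 (median 0.89). The highest value was in heifer 9204 in 118 members, in 9214 in 56 and in 9223 in 26. The lowest was in 9203 in 132 members, in 9196 in 49 and in 9202 in 19. Heifers 9223 and 9214, whose shares differ by 0.30 points, lay close together in the members, which the selection on the share also brings about. The median absolute difference between these heifers was 0.07 log2 units in the members and 0.16 in the window, and 117 of the 200 members were higher in 9214.

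**Figure D2:**
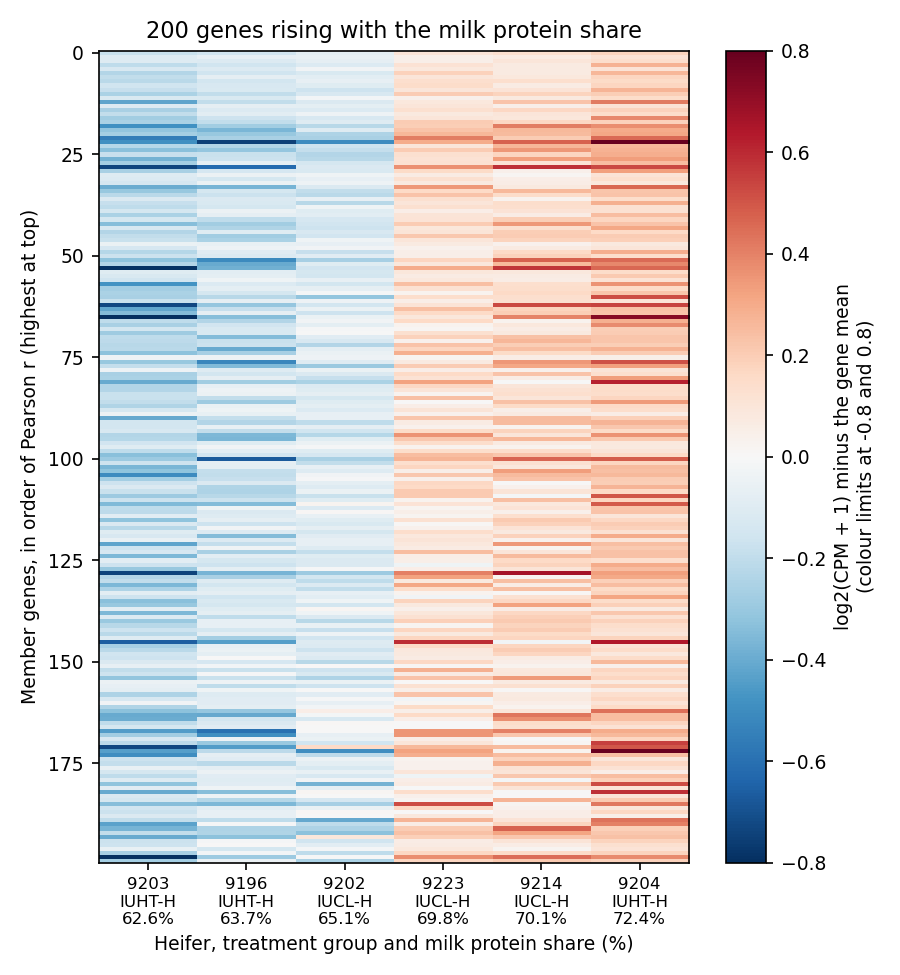
Each row is 1 of the 200 members in order of r and each column a heifer in order of milk protein share, with colour giving log2(CPM + 1) minus the mean of the gene (limits -0.8 and 0.8). Most rows are blue in heifers 9203, 9196 and 9202 and red in 9223, 9214 and 9204, and 195 members have no overlap between these 2 sets of heifers. The selection on the share favours this pattern.

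Single heifers weighed on which genes entered the set, less on their direction. On applying the rule again to 5 heifers at a time, between 75 and 144 of the 200 members were found again. The smallest number came without heifer 9204, the library with the highest share and the fewest remaining counts. The others were 115 without 9203, 119 without 9223, 120 without 9196, 127 without 9214 and 144 without 9202. A core of 46 members was found in all 6 of these sets. The r of the 200 members stayed at 0.816 or above throughout. Within IUCL-H alone and within IUHT-H alone the slope was positive in all 200 members, with medians of 0.49 and 0.42 log2 units per 10 points. In the window, 45.8% of the genes had a positive slope within IUCL-H, 38.8% within IUHT-H and 23.5% in both. The same heifers chose the members, so neither the r with 5 heifers nor the within-group slopes are an independent check of direction.

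Whether the members rose depended on what they were measured against. Summed over the set, the members had 14728, 15432, 16248, 19219.7, 19801 and 20829 CPM of the remaining counts in the order of the shares, a 1.41-fold rise. As CPM of all counts, with the milk protein genes included, the same sums were 5502, 5604, 5675, 5813, 5929.7 and 5750.4, a 1.05-fold rise. The members thus held a nearly level part of the whole RNA while the part left to genes other than the 6 fell from 37.4% to 27.6%, a shift of -0.44 on the log2 scale. On the scale of all counts, 109 members still had a positive slope and 91 a negative one, and 94.8% of the window fell. The median member slope there was 0.01, against -0.48 for the window. The distance between members and window is fixed by the rule, since the change of scale moves both alike. On the scale of all counts, 4 members kept an r as high as that of the last member, and no other gene of the window had one. With TMM normalization of the remaining genes, a scaling by trimmed mean log ratios between libraries, all 200 slopes were positive with a median of 0.59. In the window, 58.6% of the slopes were positive after TMM normalization, against 39.9% as CPM of the remaining counts.

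**Figure D3:**
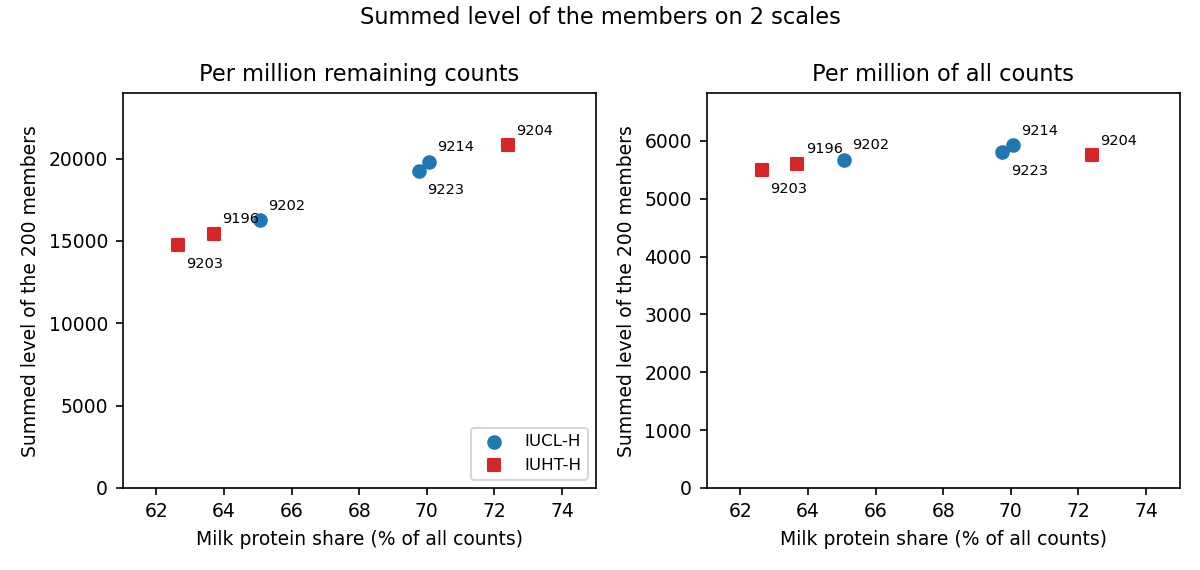
Both panels plot the summed level of the 200 members in each heifer against its milk protein share in percent of all counts, as CPM of the remaining counts on the left and as CPM of all counts on the right, with IUCL-H as blue circles and IUHT-H as red squares. The left panel climbs from 14728 to 20829, and the right panel stays between 5502 and 5929.7.

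The change of scale multiplies all genes of a heifer by the same factor and so lowers every slope by nearly the same amount, which fixes that the steeper members rose on both scales and the flatter ones did not. The 10 steepest had slopes of at least 0.64 as CPM of all counts. C14orf1 also rose, with a slope of 0.21 as CPM of all counts. The most abundant member, rank 147, was nearly level on that scale, with a slope of -0.04. The flattest, rank 152, had -0.34. In 79 members the slope on that scale was within 0.1 of 0.

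**Figure D4:**
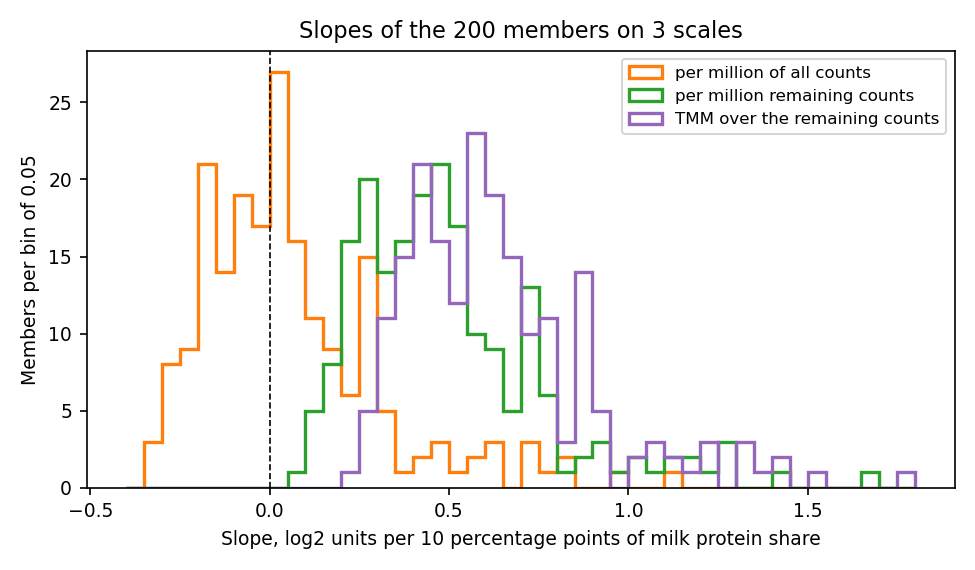
The lines are histograms of the slopes of the 200 members in log2 units per 10 percentage points of milk protein share (x axis) with the number of members per bin of 0.05 (y axis), on 3 scales. As CPM of all counts the slopes lie on both sides of 0 (109 positive), while they are all positive as CPM of the remaining counts and after TMM normalization.

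Heat stress before birth was then compared with cooling in the same genes, since this is the contrast that the study was designed for. No member passed the test between IUHT-H and IUCL-H. None of the 200 had a P at or below the cut-off of 0.01 in edgeR's quasi-likelihood test, where 0.428% of the 14724 genes tested were. None had an unadjusted P below 0.05 (2.54% of all genes), and DESeq2 and edgeR's likelihood ratio test also gave 0 members at or below 0.01 (0.842% and 0.761% of all genes). The smallest P of a member was 0.123, and the adjusted p-values by that test were 0.999 or higher. In no member were the 3 IUHT-H values apart from the 3 IUCL-H values, as they were in 6.06% of all genes tested (3.14% higher and 2.92% lower in IUHT-H). The rule does not leave this comparison untouched. Members were selected to follow a share that runs from the lowest to the highest value inside IUHT-H, so their overlap between groups is partly given by the selection.

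The fitted log2 fold change of IUHT-H over IUCL-H had a median of -0.13 in the members (range -0.54 to 0.14) and 0.0028 over all genes tested, and it was negative in 195 members against 49.4% of all genes. The mean share was also lower in IUHT-H and the members were picked to rise with the share, so the selection fixes a tilt to negative values and nothing about the treatment is read from it. The size of the median depended on the scaling, as it was -0.020 with library size only. With the share as a covariate the median was -0.03, and no member passed (0.482% of all genes did). The members were chosen to follow this covariate, which takes up most of their variation. Nothing about the treatment is read from that fit either.

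For C14orf1, the TMM-normalized level was 4.78, 4.22 and 7.32 CPM in IUHT-H 9196, 9203 and 9204 and 5.48, 7.82 and 6.43 CPM in IUCL-H 9202, 9214 and 9223 (scaled to all counts). Heifer 9204 was above 2 of the 3 IUCL-H, and the other IUHT-H were below all 3. The fitted log2 difference between the groups was -0.28 with a standard error of 0.23, and edgeR's quasi-likelihood test gave it an adjusted p = 0.999. ENSBTAG00000014476 had 3.61, 3.70 and 5.13 CPM in IUHT-H 9196, 9203 and 9204 and 3.98, 4.89 and 4.78 CPM in IUCL-H 9202, 9214 and 9223, and its log2 difference of -0.13 was smaller than its standard error of 0.19. The same held for ENSBTAG00000018847, at -0.07 with a standard error of 0.13. The largest fitted difference, in the member of rank 129, was -0.54 with a standard error of 0.35.

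Without heifer 9204 the comparison came out otherwise. The 2 remaining IUHT-H have the lowest shares of all, so that genes chosen to rise with the share are lower there by the selection, and no effect of the treatment is read from these values. The median log2 fold change of the members went to -0.32, with all 200 negative. With P at or below 0.01 in edgeR's quasi-likelihood test, 13 members were lower in IUHT-H and none was higher, which is 6.5% of the members against 0.537% of all 15070 genes tested (1.49% in either direction). The fold changes of the 13 lay between -1.08 and -0.51, and the smallest adjusted p-value of a member was 0.433. With all 6 heifers, 0 of the 200 members were called, which is near the 0.428% of all genes called there. The count of members called thus changed with 9204, and no more is read from it.

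**Figure D5:**
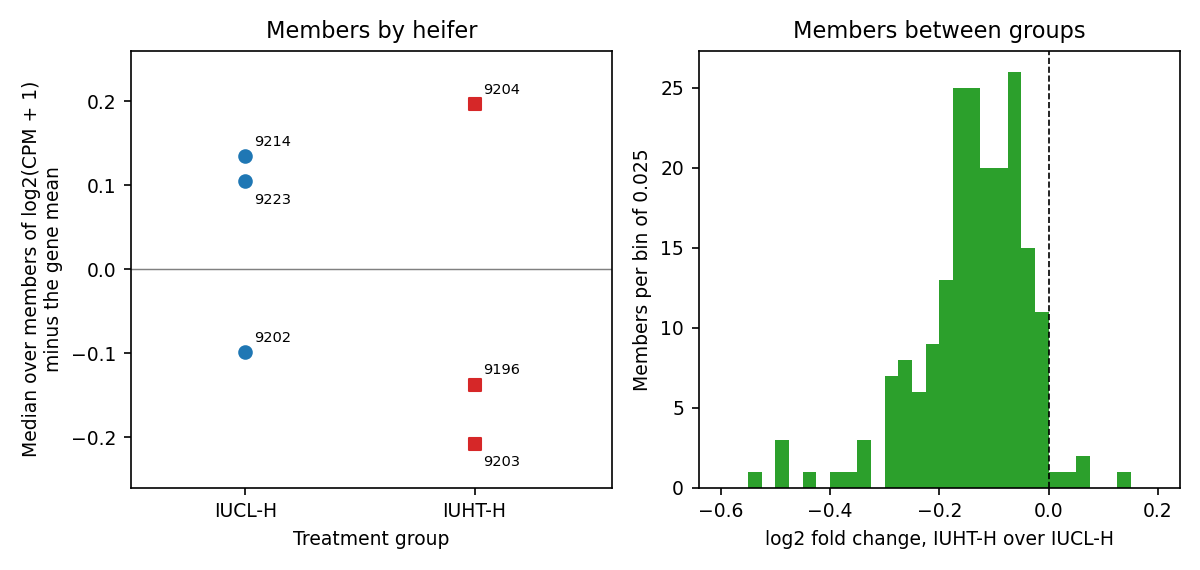
The left panel plots, for each heifer by treatment group, the median over the 200 members of log2(CPM + 1) minus the gene mean, and the right panel the number of members per bin of 0.025 of the log2 fold change of IUHT-H over IUCL-H. IUHT-H 9204 has the highest median at 0.20 and IUHT-H 9203 the lowest at -0.21, and 195 fold changes are negative.

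The share varied within both groups, so genes chosen to follow it also vary within them by the selection. The median SD within groups was 0.25 log2 units in the members and 0.17 in the window. It was 0.29 within IUHT-H and 0.19 within IUCL-H, and 192 members had the larger SD in IUHT-H, against 48.2% of the window. The shares in IUHT-H also span more points than those in IUCL-H, and the rule tied the members to the shares, so the wider spread in IUHT-H is given with the selection. Around the line through the 6 shares the median residual SD of a member was 0.08 log2 units.

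The 200 genes with the lowest r, taken by the same rule in the other direction, mark how the members differ from the genes that fell. The first of these, ENSBTAG00000032518, had 60.9, 59.1, 55.9, 46.2, 43.6 and 40.5 CPM in the order of the shares, with r = -0.996. Its rank 1 counterpart among the members changed by a smaller factor on this scale. After TMM normalization the counterpart was the steeper, with slopes of 0.52 against -0.47. The summed level of the falling genes went from 13252 CPM in heifer 9203 to 8591 CPM in 9204, a ratio of 0.648. As CPM of the remaining counts their median slope was -0.66 log2 units per 10 points, steeper in size than the 0.45 of the members. The falling genes all had r of -0.942 or lower, a stricter limit than the 0.891 of the members, so the sets were not chosen equally strictly. After TMM normalization the members were the steeper, at 0.59 against -0.52. The falling genes were rarer, with a median of 32.4 CPM. On the scale of all counts and after TMM normalization all 200 still fell, which on the scale of all counts follows from the common downward shift of the slopes. Both sets are the ends of 1 ranking over the same 6 heifers, and their differences were not tested.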

How the data were processed

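The authors deposited whole-number counts of reads per Ensembl gene for 3 IUHT-H and 3 IUCL-H, 1 library per heifer, not normalized. Per the labels and the paper, paired-end reads were mapped with TopHat2 (2.0.13) to the bovine genome, named as UMD3.1 in the processing notes and as bosTau7 in the paper, and HTSeq is listed without options.

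The share, CPM and members were computed as described above in Python 3.11.15 (pandas 2.3.3). Names of genes came from the supplementary tables. A gene that the paper names was left out only where these tables give its identifier (82 genes). Slopes are least-squares slopes on log2(CPM + 1). The group comparison used the quasi-likelihood test of edgeR (version 4.0.16, R 4.3.3) after filterByExpr and TMM normalization over all 6 heifers, with the study's P cut-off of 0.01 and Benjamini-Hochberg adjustment over 14724 genes. Standard errors were taken as the size of the fold change (log2) over the square root of F. DESeq2 (1.42.0) was an alternative. Scripts were tested on simulated data.

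Depth was 75754791 to 101361294 counts, and every member had at least 221 counts in each heifer. P-values set the difference between groups against the spread between heifers. The members and lists were chosen with earlier results of these data known. The rule for named genes covered the 10 members with the highest r, the 10 steepest, the 5 most abundant, those next to the limit of the set, and those past the cut-off with all 6 heifers. Since nearly all lack a symbol, these groups were summarized, and values are given for C14orf1, the 2 members with the highest r and a few examples by rank, which were picked after their values were seen. C14orf1, the only member with a name, lies outside the rule, as do the members of rank 152, the flattest, and of rank 158. The promoter motifs and gene lists set for the members were not run, since no sequences and few names were used here.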

Additional observations from a re-analysis of the deposited data

How the results depend on the processing

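No paired analysis was possible because the labels number heifers individually and state no matching of heifers between the groups. Of the 200 members, 132 were found with Spearman's rho and, in a scaling chosen after the data were seen, 78 with CPM of all counts, against 139 to 200 under the other alternatives with all 6 heifers (TMM, pseudocounts of 0.1 and 5, log odds of the share, a share without the 20 other most abundant genes, a wider abundance window and the named genes kept). Leaving out 1 heifer gave 75 to 144. In alternatives also added after the data were seen, all 200 slopes stayed positive under TMM, within each group and with any 1 heifer left out, and 109 did so as CPM of all counts. The same heifers chose the members for a high r, so these positive slopes are largely given by the selection and check no direction. The number of members with P at or below 0.01 was 0 under all alternatives with 6 heifers and 0 to 13 when 1 heifer was left out, with 13 only without 9204. Their median log2 fold change ranged from -0.32 to -0.040 when 1 heifer was left out, and was -0.020 with library size only and -0.03 with the share as covariate, against -0.13 with TMM. The difference in share between groups ranged from -5.13 to -0.25 points, with the largest size without 9204. ENSBTAG00000018847 changed sign to 0.048 with library size only, a scaling that also moved the median of the members upward. With the share as covariate it was 0.0012, and this gene was chosen to follow the share. No effect of the treatment is read from either sign. Mitochondrially encoded genes could not be removed from the share without names, and gene list counts under the alternatives were not run. Of all genes tested, 63 had P at or below 0.01 in the quasi-likelihood test, 112 in the likelihood ratio test and 124 in DESeq2. Counting error was small beside the median change of the members, but less so in some of the flatter ones. In the member of rank 158 the difference between heifers 9203 and 9204 was 0.14 log2 units, with a counting error of 0.08. The 6 heifers limit every value along the share.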

Other observations

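Outside the abundance window, the relation to the milk protein share differed by level. Of the 258 genes with a mean of 500 CPM or more, 13 reached the r of the last member and 13 lay at or below the same negative value, which is 5.04% in each direction. Of the 3870 genes from 1 to below 10 CPM, 0.388% reached it and 7.39% lay at or below the negative value. As CPM of the remaining counts, the balance thus went from falling genes among the rare transcripts to equal numbers among the most abundant. This is a ranking over 6 heifers without a test, and these levels were not compared under other scalings.

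Among the genes with a name, CILP, a protein of the extracellular matrix of cartilage, came closest to the set from outside at rank 209. It had 11.6, 8.80, 12.2, 15.0, 17.4 and 17.2 CPM in the order of the shares. NAA15, a subunit of the main amino-terminal acetyltransferase, was at rank 241 with 53.4, 52.9, 52.2, 67.9, 62.5 and 63.2 CPM. Of the 54 genes left out of the window because the paper names them, the highest r was 0.780, so none would have been a member.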
